A study of Mus musculus with 12 samples.

Results

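The 76 genes that encode the cytosolic ribosomal proteins were followed in mouse liver across 2 genotypes and 2 diets. The genes were chosen by name alone, as those whose symbol is Rpl or Rps followed by a number with or without a or x, by p0, p1 or p2, or by a, and they are 76 of the 20093 genes listed in both count tables. Of these, 46 encode proteins of the large subunit and 30 encode proteins of the small subunit, and every one passed the filter on low counts in each comparison. Rack1 and Rps3a1 also encode proteins of the ribosome, but their names fall outside this pattern, and they are described apart from the 76.

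Bulk RNA-seq libraries were made from the livers of male C57BL/6N mice, 12 libraries in all, with 3 in each of 4 groups. According to the labels every mouse was HuR flox/flox, carrying floxed alleles of Elavl1, the gene of the RNA-binding protein HuR, and was 4 to 6 months old when it was injected with an AAV8 virus. In the group labelled HuRHep-/- the virus was AAV8-Tbg-Cre, in which the hepatocyte promoter Tbg drives Cre, and in WT it was AAV8-Tbg-null, so that the controls also carried floxed alleles and virus. The study's methods instead describe a cross with Alb-Cre mice. Both genotypes were kept either on normal chow or for 16 weeks on the HFCF diet, which supplied 40 kcal% fat and 20 kcal% fructose and contained 2% cholesterol.

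The library totals ran from 30071731 to 35949203 counts, and Alb, the hepatocyte gene of serum albumin, was the most counted gene in all 12 libraries. Elavl1 went against the genotype label. Its level was 29.3 to 31 CPM (the usual unit of counts scaled to libraries of equal size) in chow WT, 38.8 to 42.8 in chow HuRHep-/-, 23.9 to 27.0 in HFCF WT and 32.2 to 34.2 in HFCF HuRHep-/-, so that it was higher in the livers labelled HuRHep-/- on both diets (log2 fold change 0.41 ± 0.07 SE, adjusted p = 0.022 on chow, and 0.38 ± 0.07, adjusted p = 0.0327 on HFCF, limma). The counts are per gene and were not resolved to the floxed exons, so HuRHep-/- below means the libraries labelled HuRHep-/-. The chow and HFCF libraries came in separate tables, and diet cannot be told apart from anything else that differed between the tables. The labels number the livers without saying more of how they were collected, so the p-values measure the spread between these libraries. In bulk tissue, fewer cells of a type cannot be told apart from less RNA per cell.

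Each ribosome holds 1 large and 1 small subunit, and the ribosomal proteins are made in matched amounts to be joined to the ribosomal RNAs in the nucleolus. Their mRNAs are short, abundant and stable, and most start with a C followed by a run of pyrimidines, the terminal oligopyrimidine (TOP) tract. Through this tract the kinase mTOR and the RNA-binding protein LARP1 set how strongly the mRNAs are translated and how well they are stored when nutrients are scarce. The liver spends much of its synthetic capacity on secreted proteins and carries many ribosomes per hepatocyte.

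The start sites are shown first, since the TOP tract is the sequence feature by which these mRNAs are jointly controlled. RefSeq promoter sequences (build GRCm38.p6) were matched by symbol for 56 of the 76 genes. Each line gives the 10 bases before the annotated start and the 20 bases from it, read 5′ to 3′ on the gene's strand, and the capitals mark a C at the annotated start with the C and T bases that follow it without a break, where at least 4 follow. The first 6 lines are genes whose values are described below, and Rpl10a is shown as the one gene that passed the test between genotypes on chow; it has no such tract at its annotated start.
Rps6 (chr4:86857348-86857377, minus strand): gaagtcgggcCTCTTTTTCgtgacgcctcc
Rps27 (chr3:90213629-90213658, minus strand): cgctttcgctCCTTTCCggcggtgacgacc
Rps21 (chr2:180257369-180257398, plus strand): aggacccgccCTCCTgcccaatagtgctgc
Rps18 (chr17:33955646-33955675, minus strand): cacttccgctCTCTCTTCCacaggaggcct
Rplp2 (chr7:141447641-141447670, plus strand): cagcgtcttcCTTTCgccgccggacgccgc
Rpl38 (chr11:114668570-114668599, plus strand): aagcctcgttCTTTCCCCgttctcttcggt
Rpl10a (chr17:28328461-28328490, plus strand): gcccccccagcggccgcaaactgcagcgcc
Such a tract exactly at the annotated start was found in 13 of the 56 genes (23.2%), against 3.01% of the 27025 genes in the same table. Allowing the start to lie up to 5 bases away on either side, it was found in 27 of the 56 (48.2%) against 21.2%. The letters CCGGAAG, the core of the motif bound by GABP and other ETS factors, stood on either strand between 250 bases before and 50 after the start in 23 of the 56 genes (41.1%) against 9.93% of all, and on the opposite strand, as CTTCCGG, they overlap a C followed by T and C bases. TATAAA on either strand in the 40 bases before the start was found in 0 of the 56 and in 3.63% of all genes. These are matches of letters in a window and are given as a description.

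The ribosomal protein genes took between 1.20% and 1.69% of all counts. In chow WT the 3 libraries gave 1.69%, 1.49% and 1.63% (mean 1.60% ± 0.105 SD, n = 3), and in chow HuRHep-/- they gave 1.55%, 1.53% and 1.47% (1.51% ± 0.0388, n = 3). On HFCF the shares were 1.30%, 1.20% and 1.33% in WT (1.28% ± 0.0712, n = 3) and 1.52%, 1.40% and 1.63% in HuRHep-/- (1.51% ± 0.112, n = 3). The 95% Wilson interval of each share reached at most 0.0043 percentage points to either side, which covers counting error only and is far smaller than the spread between libraries. HFCF WT was the lowest group, and its highest library lay below the lowest library of each of the other 3 groups. The other 3 groups overlapped one another. Genes of the large subunit took 0.974% of counts in chow WT and 0.782% in HFCF WT on average, and genes of the small subunit 0.629% and 0.496%, so both subunits had a lower share in HFCF WT.

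**Figure D1:**
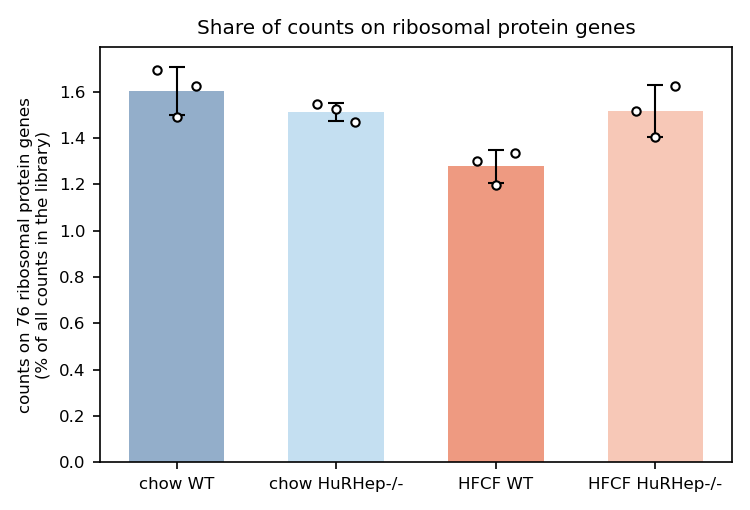
Counts on the 76 ribosomal protein genes as a percentage of all counts in each library (y axis, starting at 0) in the 4 groups (x axis). Points are libraries, bars are group means and error bars are 1 SD (n = 3); the 3 HFCF WT libraries, at 1.20% to 1.33%, lie below the other 9.

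A share depends on what else is counted, so the libraries were also compared after scaling with TMM factors (from a trimmed mean of log ratios), which sets most genes equal between libraries. On that scale the summed level of the 76 genes was 15909 to 19206 CPM in chow WT, 15617 to 16087 in chow HuRHep-/-, 12305 to 12753 in HFCF WT and 12679.6 to 14333 in HFCF HuRHep-/-. All 6 HFCF libraries lay below all 6 chow libraries. Against each gene's mean over the 12 libraries, the median ribosomal protein gene was 0.40, 0.11 and 0.31 higher (log2) in the chow WT libraries and 0.08, 0.09 and 0.13 higher in chow HuRHep-/-. It stood at -0.25, -0.27 and -0.20 in HFCF WT and at -0.13, -0.20 and -0.04 in HFCF HuRHep-/-, while the median of all genes stayed between -0.01 and 0.00 in every library. Replicate 2 of chow WT stood apart from the other chow WT libraries, close to the chow HuRHep-/- libraries. The genes moved together within a library. Of the 76, 74, 74 and 75 were below their mean in the HFCF WT libraries, against 0, 6 and 0 in chow WT.

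**Figure D2:**
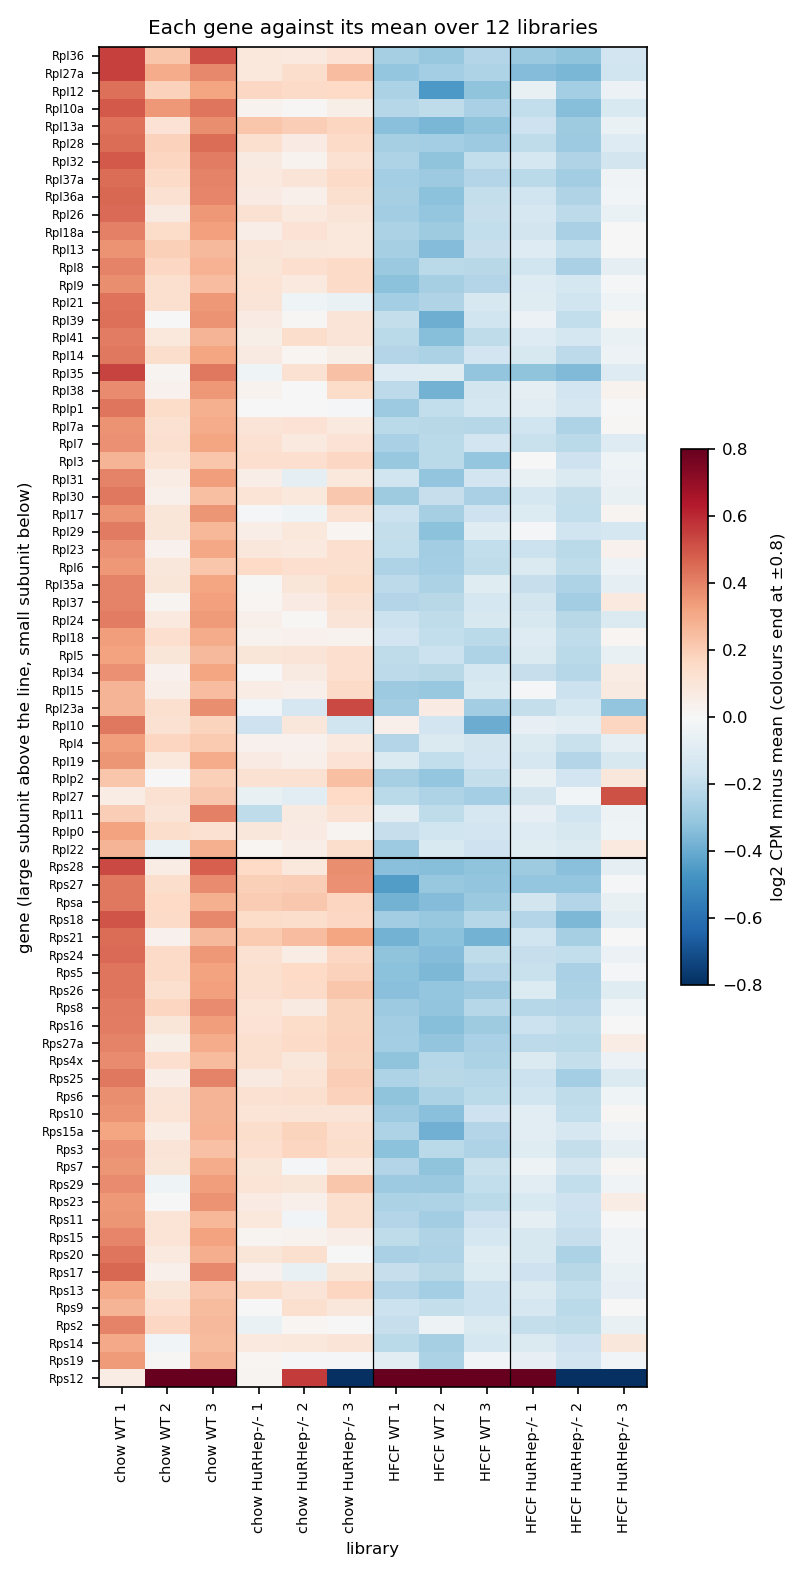
Log2 CPM of each ribosomal protein gene (rows, large subunit above the line and small subunit below) minus its mean over the 12 libraries (columns), with red above and blue below the mean and the colours ending at ±0.8. The chow columns are mostly red and the HFCF columns mostly blue, with chow WT replicates 1 and 3 the deepest red; Rps12, in the last row, follows a pattern of its own.

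Levels of single genes were compared with one another only per kilobase of transcript. The highest mean levels over the 12 libraries belonged to Rplp1, an acidic protein of the stalk that recruits translation factors, at 721 CPM per kilobase, to Rpl13a, a large subunit protein known also for a role in translational control in inflammation, at 712, and to Rps18 of the small subunit at 531, with Rpl41, the smallest of the ribosomal proteins, at 531. The lowest were Rps12 at 16.4, Rps15a at 20.3 and Rpl27 at 23.8 CPM per kilobase. The value of Rps15a rests on an annotated transcript of 5130 bases, the longest among the 76, whose median transcript was 723.5 bases against 2133 for all listed genes. Rps12 and Rpl27 each have a listed copy that held more counts than the gene itself.

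Ribosomal protein genes have many near-identical copies, and reads that fit both a gene and its copy cannot be assigned with certainty. In the GENCODE M21 transcripts, 50 of the 76 genes shared over 50% of their 31-base words with some other gene, and 5 shared under 10%. For 11 genes a listed copy held at least 10% of these words and at least 300 counts per library on average. Rps12-ps3, a copy that held 90.4% of the words of Rps12, ran from 71.7 to 142 CPM, while Rps12 itself had 5.46, 11.8 and 15.9 CPM in chow WT, 5.30, 7.92 and 0.308 in chow HuRHep-/-, 11.2, 18.2 and 9.43 in HFCF WT and 9.45, 0.441 and 0.754 in HFCF HuRHep-/-. The libraries of each HuRHep-/- group thus differed many-fold in Rps12, with 3 libraries of HuRHep-/- under 1 CPM, while those of each WT group differed less. Rpl10-ps3 held 92.3% of the words of Rpl10 at 418 to 602 CPM, Rpl27-ps3 65.2% of those of Rpl27, Rpl23a-ps3 76.8% of those of Rpl23a, and Rps27rt 98.7% of those of Rps27. The values of these genes are therefore uncertain, and each comparison was repeated with the counts of the copy added to the gene.

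**Figure D3:**
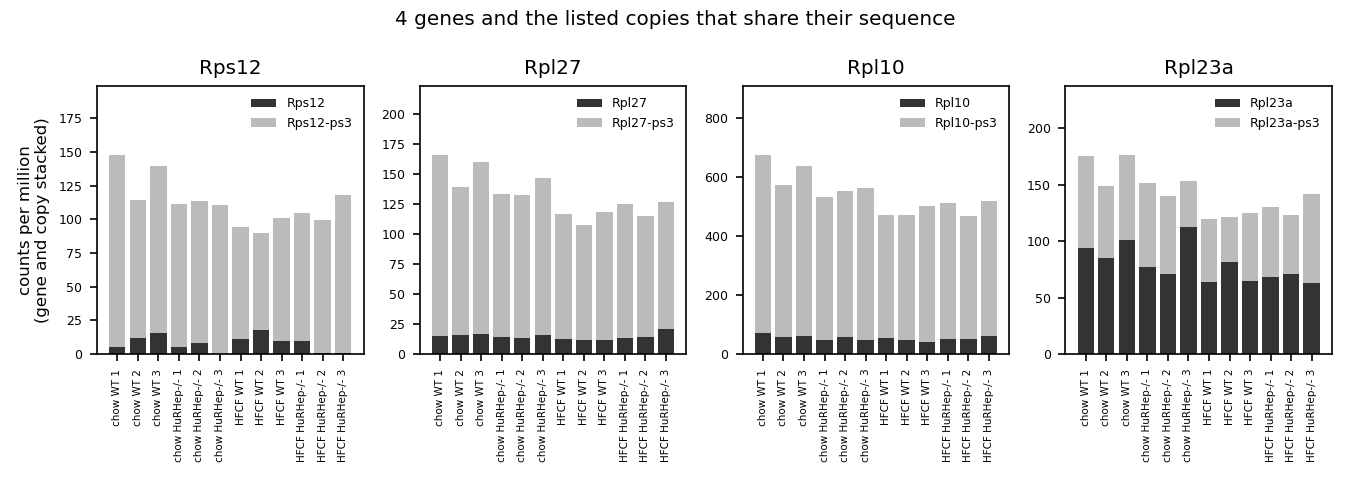
CPM of Rps12, Rpl27, Rpl10 and Rpl23a (dark bars) and of their listed copies (light bars, stacked on top) in each of the 12 libraries (x axis); each panel has its own y axis from 0. The dark bar of Rps12 differs between libraries of 1 group and nearly vanishes in 3, while the stacked total varies much less.

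The HFCF diet was compared with chow first, since this comparison showed the larger difference. In WT livers 73 of the 76 genes fell (adjusted p at most 0.05, limma with Benjamini-Hochberg adjustment over 14535 genes), against 12.9% of all genes tested, and none rose. The median log2 fold change was -0.50 (quartiles -0.56 and -0.44), a fold of 0.708, with a median standard error of 0.08, beside 0.01 over all genes. In 75 of the 76 genes all 3 HFCF WT libraries lay below all 3 chow WT libraries, which 19.8% of all genes did. Most changes were below the 1.5-fold limit of the study, and 18 of the 76 passed its criteria (adjusted p at most 0.05, at least 1.5-fold and at least 10 counts in each group), against 9.38% of all genes in either direction. That count was 8 without chow WT replicate 1, 34 without chow WT replicate 2, 8 with upper-quartile factors and 0 under library totals alone.

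The 5 called genes with the largest falls in WT came from both subunits. Rpl36 (chr17:56613416-56614243, mm10), a large subunit protein, had 169.9, 136 and 166 CPM in the chow WT libraries and 96.6, 94.1 and 98.7 in HFCF WT, a log2 fold change of -0.70 ± 0.08 SE (adjusted p = 4.3e-04). The highest HFCF library thus stood well below the lowest chow library. Rps28 (chr17:33819027-33824562) of the small subunit went from 139, 101 and 135 CPM to 76.2, 76.1 and 77.1 (-0.69 ± 0.12, adjusted p = 0.00268), and its 3 HFCF WT libraries were almost equal. Rpl27a (chr7:109519147-109522367), a large subunit protein, went from 311, 261 and 277 to 172, 176 and 179 CPM (-0.69 ± 0.08, adjusted p = 4.0e-04). Rps27 (chr3:90212522-90213651), the zinc-binding small subunit protein whose TOP tract is printed above, went from 158, 130.3 and 154 to 86.5, 95.7 and 94.8 CPM (-0.67 ± 0.10, adjusted p = 0.0012). Rpl12 (chr2:32961559-32965345), which lies at the base of the stalk, went from 226, 189 and 208 to 139.8, 121 and 133 CPM (-0.66 ± 0.08, adjusted p = 6.5e-04). In each of these genes the 2 groups did not overlap, and replicate 2 was the lowest chow WT library.

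The stalk, on which the elongation factors land, is built from Rplp0 and pairs of Rplp1 and Rplp2. All 3 fell in HFCF WT. Rplp0 (chr5:115559467-115563727), the scaffold, had 559, 495 and 489 CPM in chow WT and 395, 401 and 403 in HFCF WT (-0.36 ± 0.07, adjusted p = 0.00331), Rplp1 (chr9:61913284-61914542) had 481, 395 and 435 and 292, 310.3 and 323 (-0.50 ± 0.08, adjusted p = 0.00147), and Rplp2 (chr7:141447370-141451585) had 164, 141 and 161 and 117, 114 and 123 (-0.39 ± 0.08, adjusted p = 0.00544). In HuRHep-/- livers none of the 3 passed the test between diets, with log2 fold changes of -0.15 ± 0.07 (adjusted p = 0.0945), -0.07 ± 0.08 (adjusted p = 0.513) and -0.21 ± 0.08 (adjusted p = 0.0587).

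Ribosomal proteins with known roles outside the ribosome or in inherited disease were looked at as a list of 9, and all 9 fell in HFCF WT. Rpsa, the laminin receptor precursor, and Rpl13a had the largest changes of the 9, at -0.63 ± 0.08 (adjusted p = 4.7e-04) and -0.65 ± 0.08 (adjusted p = 7.4e-04). Rpl5 and Rpl11, which together with 5S ribosomal RNA bind the p53 regulator Mdm2, had log2 fold changes of -0.43 ± 0.07 (adjusted p = 0.00184) and -0.38 ± 0.10 (adjusted p = 0.0157). Rps6, the substrate of the S6 kinases downstream of mTOR, had 446, 369 and 415 CPM in chow WT and 275, 288 and 295 in HFCF WT (-0.52 ± 0.08, adjusted p = 0.0012). Rps19, whose mutation causes Diamond-Blackfan anaemia, had the smallest change among the genes that fell, with 187, 148 and 178 CPM in chow WT and 138, 124 and 145 in HFCF WT (-0.33 ± 0.09, adjusted p = 0.0182). Rps3, Rps27a, which is made as a fusion with ubiquitin, and Rpl22, a protein needed for T cell development, had log2 fold changes of -0.50, -0.53 and -0.36. A further list of 13 members fell in full. It held Rpl3 (-0.48), which reaches into the peptidyl transferase centre, Rpl4 (-0.41), which lines the exit tunnel, Rpl10 (-0.42), which joins the subunit late, Rpl38 (-0.50), known for its part in Hox mRNA translation, and Rpl41 (-0.51), with the other 8 between -0.67 and -0.39.

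Both subunits had a like change in WT. Of the 46 large subunit genes 44 fell, with a median of -0.48, and of the 30 small subunit genes 29 fell, with a median of -0.51. The 3 genes that did not pass the test were Rpl27 (-0.39 ± 0.15, adjusted p = 0.0703), Rpl23a (-0.42 ± 0.15, adjusted p = 0.0652) and Rps12 (0.30 ± 1.20, adjusted p = 0.878), all of them among those with a counted copy. With the counts of the copies added, 76 of 76 estimates were below 0 and 75 genes fell, Rps12 at -0.49 (adjusted p = 0.00425), and the exception was Rpl21 (-0.19, adjusted p = 0.104). The 26 genes that share at most 50% of their words with any gene all fell, with a median of -0.50.

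In HuRHep-/- livers the diet comparison went the same way with smaller values. Of the 76 genes 39 fell and none rose, against 19.1% of all genes that fell, and the median log2 fold change was -0.23 (quartiles -0.28 and -0.15), a fold of 0.854, beside 0.00 over all genes. The libraries of the 2 diets did not overlap in 57 of the 76 genes, all of them lower on HFCF, against 27.1% of all genes. By the criteria of the study 0 of the 76 passed, against 19.1% of all genes. Of the large subunit 21 of 46 genes fell (median -0.21) and of the small subunit 18 of 30 (median -0.26).

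The largest falls in HuRHep-/- were again spread over both subunits. Rps27 had 135, 135 and 152 CPM in chow HuRHep-/- and 95.0, 95.0 and 117 in HFCF HuRHep-/- (-0.47 ± 0.10, adjusted p = 0.00416), Rpl27a had 225, 234 and 252 and 167, 165 and 190.0 (-0.45 ± 0.08, adjusted p = 0.00153), and Rps28 had 108, 102 and 125 and 79.0, 76.2 and 91.8 (-0.44 ± 0.12, adjusted p = 0.0138). Replicate 3 was the highest HFCF HuRHep-/- library in each of the 3. Rps21 and Rps18, small subunit proteins whose TOP tracts are printed above, followed at -0.40 ± 0.10 (adjusted p = 0.00752) and -0.38 ± 0.09 (adjusted p = 0.00705). Rpl27, at 0.11 ± 0.15 (adjusted p = 0.571), had the highest estimate, and Rps12, at -0.68 ± 1.20 (adjusted p = 0.678), the lowest, and neither passed the test. With the counts of their copies added they stood at -0.17 and -0.06. The call of Rps28 was lost without chow HuRHep-/- replicate 3 or HFCF HuRHep-/- replicate 2. The count of genes that fell rested on single libraries more than in WT. It ranged from 14 without HFCF HuRHep-/- replicate 2 to 50 without chow WT replicate 2, a library of neither group compared, and was 20 without chow HuRHep-/- replicate 3 and 25 without HFCF HuRHep-/- replicate 1. Of all genes 14.9%, 20.0%, 14.2% and 14.0% were called lower in these settings, in that order.

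**Figure D4:**
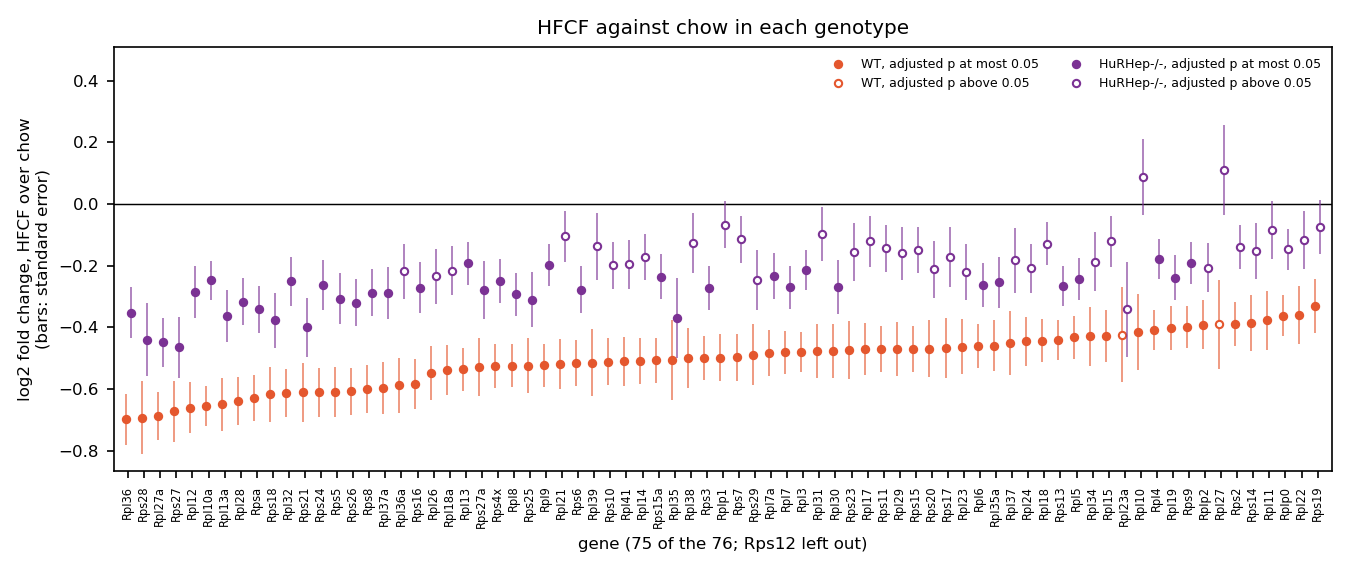
Log2 fold change of HFCF over chow (y axis, bars 1 standard error) for 75 of the 76 genes (x axis, ordered by the value in WT; Rps12 is left out for its range) in WT (orange) and in HuRHep-/- (purple), with filled points for adjusted p at most 0.05. The WT points run from -0.70 to -0.33, and nearly all the HuRHep-/- points lie above the WT point of the same gene and below 0.

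The diet comparison depends on how the libraries are scaled, and the direction is relative to the other genes. With scaling by library totals alone, the median of all genes moved up to 0.19 in WT and 0.23 in HuRHep-/-, and that of the 76 genes to -0.32 and 0.00. Under that scaling 63 of the 76 genes fell in WT and 2 in HuRHep-/-, against 4.96% and 6.49% of all genes, so the fall in HuRHep-/- was seen against the other genes and not as a share of all counts.

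Genotype was compared next, within each diet. On chow, 74 of the 76 genes had a lower estimate in HuRHep-/- than in WT, with a median log2 fold change of -0.16 (median standard error 0.08), a fold of 0.893, beside 0.00 over all genes. Only 1 of the 76 passed the test, against 4.18% of all genes, and 26 had an unadjusted p under 0.05, against 23.5% of all genes. The count of 26 was 7 without chow WT replicate 1, 10 without chow WT replicate 3 or chow HuRHep-/- replicate 1 or 2, 63 without chow WT replicate 2, and 9 under library totals alone, where the median was -0.08 beside 0.08 over all genes. The shares of all genes at that p under these settings were not determined. The gene that passed was Rpl10a (chr17:28328471-28331033, plus strand, ENSMUSG00000037805), a large subunit protein at the site where spent transfer RNA leaves. It had 253, 229.9 and 243 CPM in chow WT and 184, 181 and 187 in chow HuRHep-/- (-0.39 ± 0.06, adjusted p = 0.019), so the 2 groups were far apart and each was tight. The call was lost when chow WT replicate 1 or 3 or chow HuRHep-/- replicate 1 or 2 was left out, with adjusted p of 0.069 to 0.107 then. In those settings 0.49%, 0.31%, 0.46% and 0.04% of all genes were called lower, in that order, against 1.91% with all libraries.

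The libraries of the 2 genotypes did not overlap in 22 of the 76 genes on chow, all of them lower in HuRHep-/-, against 14.1% of all genes. Rplp1 had 357, 355 and 353 CPM in chow HuRHep-/-, below all 3 chow WT libraries given above (-0.29 ± 0.08, adjusted p = 0.0858), and Rpl36 had 123, 123 and 126 (-0.33 ± 0.09, adjusted p = 0.0805). The large subunit held 18 of these 22 genes, with a median over its 46 genes of -0.18, and the small subunit 4, with a median of -0.14. Rplp2, at 0.03 ± 0.08, had the highest estimate and Rps12, at -2.07 ± 1.10, the lowest, the latter being -0.25 with its copy added. Without chow WT replicate 2, the chow WT library nearest to HuRHep-/-, 16 of the 76 passed, all lower in HuRHep-/-, against 1.88% of all genes that were lower, and the median was -0.25. That library was singled out on these same genes, so leaving it out widens the difference by its choice. Without any other single chow library 0 or 1 of the 76 passed.

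On HFCF the estimates lay mostly on the other side of 0 and were smaller. Of the 76 genes 67 had a higher estimate in HuRHep-/- than in WT, with a median log2 fold change of 0.10 (median standard error 0.07), a fold of 1.07, beside 0.00 over all genes. Without HFCF HuRHep-/- replicate 3 the median was 0.05, with 0 genes at an unadjusted p under 0.05, and without HFCF HuRHep-/- replicate 2 it was 0.14 with 13. By limma 0 of the 76 passed the test, also with voom weights, against 6.79% of all genes, and 8 had an unadjusted p under 0.05, against 29.5%. The latter count was 13 with the replicate block, 30 with upper-quartile factors and 59 under library totals alone. The shares of all genes at that p under these settings, or with a library left out, were not determined. All genes moved too: their median was 0.05 with upper-quartile factors. With the replicate block 4.46% of all genes were called higher, against 2.85% without it. With scaling by library totals alone 6 passed, all higher in HuRHep-/-, against 7.63% of all genes that were higher under that scaling, where the median of the 76 was 0.25 and that of all genes 0.15. The HuRHep-/- libraries lay above all WT libraries in 20 genes, 12 of them of the small subunit, against 17.6% of all genes. Rpl3 had 226, 240.3 and 225 CPM in HFCF WT and 278, 249 and 272 in HFCF HuRHep-/- (0.19 ± 0.07, adjusted p = 0.121), and Rpsa 328, 335 and 346 and 385, 362 and 409 (0.18 ± 0.07, adjusted p = 0.137). The groups lay close, with the lowest HuRHep-/- library just above the highest WT library. Rpl27 had the highest estimate at 0.35 ± 0.17 and Rps12 the lowest at -3.08 ± 1.03, both genes with a counted copy, and with the copies added Rpl27 stood at 0.08 and Rps12 at 0.16 (adjusted p = 0.235). Rpl10a, called on chow, had 154, 157 and 151 CPM in HFCF WT and 158, 143 and 166 in HFCF HuRHep-/- (0.00 ± 0.07, adjusted p = 0.988).

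**Figure D5:**
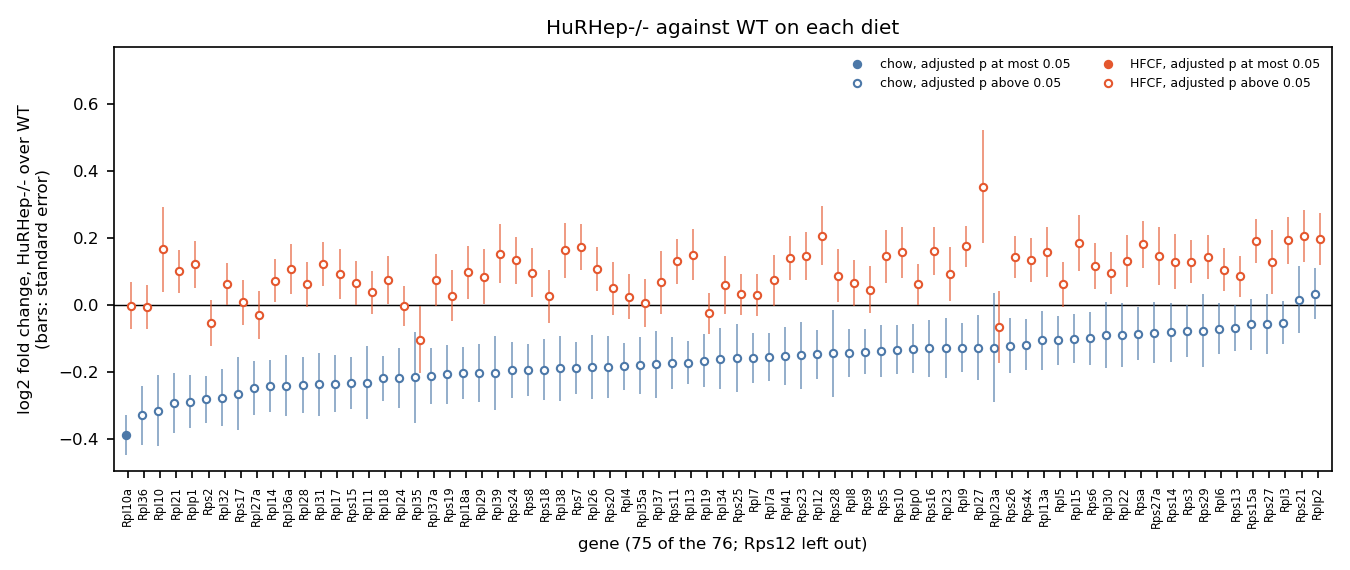
Log2 fold change of HuRHep-/- over WT (y axis, bars 1 standard error) for 75 of the 76 genes (x axis, ordered by the value on chow; Rps12 is left out for its range) on chow (blue) and on HFCF (orange), with filled points for adjusted p at most 0.05. The chow points lie below 0 apart from 2, most of the HFCF points lie just above 0, and Rpl10a on chow is the single filled point.

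The difference of the genotype effect between diets was tested with the interaction term of a fit over all 12 libraries. By limma 0 of the 76 genes passed the test, also with voom weights, and 0% of the 14535 genes tested did. At an unadjusted p under 0.05 there were 46 of the 76, against 14.4% of all genes. The interaction was above 0 in 75 of the 76 genes, with a median of 0.28 on the log2 scale (median standard error 0.12). The smallest p belonged to Rpl10a (0.41 ± 0.09, adjusted p = 0.128) and Rplp1 (0.43 ± 0.11, adjusted p = 0.153), the highest value to Rpl10 (0.50 ± 0.18, adjusted p = 0.247) and the lowest to Rps12 (-0.99 ± 1.70, adjusted p = 0.837). Both of these have a counted copy, and with it added Rpl10 stood at 0.24 and Rps12 at 0.43. The same term is the difference of the 2 diet effects, and 75 of the 76 genes had a lower diet estimate in WT than in HuRHep-/-. That the fall on HFCF differs between the genotypes was therefore not shown for any single gene. With 1 library left out, the count at an unadjusted p under 0.05 ran from 25 without chow WT replicate 1 (median 0.22) and 30 without HFCF HuRHep-/- replicate 3 (median 0.24) to 73 without chow WT replicate 2 (median 0.37). The shares of all genes at that p with a library left out were not determined.

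Rack1, a scaffold for signalling proteins on the small subunit, and Rps3a1, a small subunit protein, lie outside the name pattern and fell with the diet in both genotypes. In WT Rack1 stood at -0.51 ± 0.06 (adjusted p = 4.7e-04) and Rps3a1 at -0.46 ± 0.08 (adjusted p = 0.00226), and in HuRHep-/- they stood at -0.20 ± 0.06 (adjusted p = 0.0195) and -0.23 ± 0.08 (adjusted p = 0.0324). Of the 5 paralogs tested, Rpl22l1, the counterpart of Rpl22, had 62.9, 48.3 and 51.2 CPM in chow WT and 36.7, 37.7 and 41.4 in chow HuRHep-/- (-0.47 ± 0.10, adjusted p = 0.0498). It also fell with the diet in WT (-0.93 ± 0.12, adjusted p = 6.9e-04) and in HuRHep-/- (-0.45 ± 0.12, adjusted p = 0.0121), more than any of the 76 genes in WT by its estimate. With the diet 2 of the 5 paralogs fell in WT (median -0.28) and 1 in HuRHep-/-, where 2 had a higher estimate (median -0.01). Of all genes 12.9% and 19.1% fell. Between genotypes 1 paralog was lower on chow, against 1.91% of all genes. On HFCF 0 were called, against 6.79% of all genes, and 1 had an unadjusted p under 0.05, against 29.5%. The second paralog that fell with the diet in WT was Rpl36al (-0.28 ± 0.08, adjusted p = 0.03).

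Other genes with TOP mRNAs, the elongation and initiation factors and the host genes of small nucleolar RNAs, formed a list of 27. Beside the counts of this and the following lists stand the shares over all genes, of which 12.9% fell and 11.3% rose with the diet in WT, and 19.1% fell and 19.7% rose in HuRHep-/-. In HFCF WT 16 of the 27 fell (median -0.29), among them Snhg1, a snoRNA host gene, at -1.16 ± 0.12 (adjusted p = 1.9e-04) and the initiation factor Eif3a at -0.47 ± 0.06 (adjusted p = 7.4e-04). In HuRHep-/- 10 fell and 2 rose with the diet (median -0.17), with Snhg1 at -0.83 ± 0.12 (adjusted p = 5.1e-04). Between genotypes the helicase Eif4a2 was lower in HuRHep-/- on chow (-0.60 ± 0.07, adjusted p = 0.00762) and on HFCF (-0.65 ± 0.09, adjusted p = 0.0189), and the snoRNA host Gas5 on chow (-0.44 ± 0.08, adjusted p = 0.0257).

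Of 69 tested genes of ribosome biogenesis, 34 fell and 2 rose in HFCF WT (median -0.30, with 12.9% of all genes falling), and 19 fell and 2 rose in HFCF HuRHep-/- (median -0.16, with 19.1% of all genes falling). Gnl3, the nucleolar GTPase nucleostemin, fell in both, at -1.0 ± 0.10 (adjusted p = 1.8e-04) and -0.76 ± 0.10 (adjusted p = 3.6e-04). Npm1, a nucleolar chaperone that is also on the TOP list, had 165, 147 and 174 CPM in chow WT, 106, 117 and 112 in HFCF WT, 144, 147 and 151 in chow HuRHep-/- and 124, 119 and 131 in HFCF HuRHep-/-. In each genotype its HFCF libraries lay below its chow libraries. Between genotypes Utp20, a factor of small subunit assembly, was lower in HuRHep-/- on chow (-0.51 ± 0.09, adjusted p = 0.0277) and on HFCF (-0.64 ± 0.10, adjusted p = 0.0235), and Eif6, which keeps the subunits apart, was higher on HFCF (0.44 ± 0.08, adjusted p = 0.0333). Of 31 tested regulators of TOP mRNAs and of ribosomal protein synthesis, 10 fell and 3 rose in HFCF WT (median -0.17), and 11 fell and 2 rose in HFCF HuRHep-/- (median -0.18), beside the same 12.9% and 19.1% of all genes that fell. Cnbp, a nucleic acid binding protein that binds TOP mRNAs, fell in both, at -0.35 ± 0.05 (adjusted p = 0.00166) and -0.39 ± 0.05 (adjusted p = 4.6e-04). Eif4ebp2, a repressor of cap-dependent translation that mTOR switches off, was higher in chow HuRHep-/- (0.63 ± 0.12, adjusted p = 0.0286), and Pcbp2, a poly(C)-binding protein, was lower (-0.38 ± 0.06, adjusted p = 0.0187).

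The proteins of the mitochondrial ribosome are encoded by other nuclear genes whose mRNAs are not known as TOP mRNAs, and they serve as the nearest comparison. Their summed level was 2535 to 2725 CPM over 77 genes in chow WT, 2519.6 to 2751 in chow HuRHep-/-, 2424 to 2531 in HFCF WT and 2446 to 2479.6 in HFCF HuRHep-/-. In HFCF WT 15 of the 77 fell and 2 rose (median -0.09), and in HFCF HuRHep-/- 14 fell and 2 rose (median -0.08), where 12.9% and 19.1% of all genes fell. Between genotypes limma called 0 of the 77 on either diet, against 4.18% of all genes on chow and 6.79% on HFCF, with 11 genes at an unadjusted p under 0.05 on chow and 5 on HFCF (23.5% and 29.5% of all genes), and with medians of -0.01 on chow and -0.01 on HFCF. The 15 of 77 that fell in WT stood beside 73 of 76 of the cytosolic genes. Both are described by their counts, and the difference between the lists was not tested.

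Markers of several liver cell types moved with the groups. The summed level of 10 hepatocyte markers was 106729 to 129736 CPM in chow WT, 89125 to 98489 in chow HuRHep-/-, 76978 to 84766 in HFCF WT and 67418 to 75174 in HFCF HuRHep-/-. Alb, 1 of the 10, took 4.50% to 7.13% of all counts in a library, so these sums weigh it heavily. Between genotypes on chow 0 of the 10 were called, against 4.18% of all genes. There 0 had an unadjusted p under 0.05, against 23.5% of all genes, and 3 had a higher estimate in HuRHep-/-. On HFCF 2 of the 10 were called lower in HuRHep-/- than in WT, against 3.95% of all genes, and 3 had a higher estimate, with a median log2 fold change of -0.09, and with the diet 4 were called lower in WT and 6 in HuRHep-/-, beside 12.9% and 19.1% of all genes. For the 15 listed macrophage markers the sums were 279 to 354, 361 to 519.6, 404 to 727 and 729 to 969 CPM, with 7 of 15 called higher with the diet in WT and 11 in HuRHep-/-, where 11.3% and 19.7% of all genes were. The 9 stellate and fibroblast markers summed to 171 to 201, 138 to 214, 173 to 415 and 407 to 525 CPM, with 1 and 9 called higher with the diet, and the 6 cholangiocyte markers to 35.7 to 79.7, 48.2 to 78.2, 39.2 to 88.4 and 135 to 245 CPM, with 0 and 6. Between genotypes on HFCF 1 of the 15 macrophage, 1 of the 9 stellate and 3 of the 6 cholangiocyte markers were called higher in HuRHep-/-, against 2.85% of all genes. Sinusoidal endothelial markers ranged from 117 to 158 CPM, lymphocyte markers from 12.7 to 39.8, neutrophil markers from 1.86 to 5.58 and erythroid markers from 338 to 1098 over all libraries. With the diet in HuRHep-/- 3 of 8 endothelial, 4 of 12 lymphocyte, 1 of 3 tested neutrophil and 0 of 5 tested erythroid markers were called higher, against 19.7% of all genes. In WT 1, 1, 0 and 0 of them were, against 11.3%. Itgam of the macrophage list and Ly6g of the neutrophil list were not listed in both count tables and are in none of these sums. Of the listed markers 7 lymphocyte, 4 neutrophil and 2 erythroid ones averaged under 1 CPM. The part of these cells in the ribosomal protein values was not tested.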

How the data were processed

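Read counts per gene, deposited as raw counts by the authors in one table per diet, were whole numbers from single libraries, which the authors had aligned in CLC Genomics Workbench (version not given in the sources used here) to GRCm38.p6 with reverse strand alignment; how reads that fit several genes were assigned is not given in the sources used here. RNA came from total liver RNA of RIN above 6.0 and a stranded kit. Libraries were grouped by their titles, 3 per group. The tables list 20775 and 22709 genes.

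The counts were converted to CPM with TMM factors, and log2(CPM) with a pseudocount of 0.5 counts was fitted with limma 3.58.1 (R 4.3.3, moderated test with a trend), p-values being adjusted by Benjamini-Hochberg over all genes tested. A gene was tested if it had at least 10 counts in a library of median size in at least 3 libraries and at least 15 in all. Genotypes were compared within each diet, and diets and the interaction in one fit of 12 libraries over the 14535 genes in both tables that passed the filter. A log2 fold change is on this log2(CPM + pseudocount) scale, with its standard error (SE). Fits were tested on simulated data. Positions and transcript lengths are from GENCODE M21 (GRCm38, mm10), using for each gene the protein-coding transcript of median length.

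The ribosomal protein genes and the other lists were chosen with earlier results of these data known. Named are the members of 3 fixed sublists (stalk, extraribosomal or disease-linked, and 13 others), all called genes where 10 or fewer passed and otherwise the 5 with the largest change each way, the highest and lowest fold change in each comparison, the 3 highest and 3 lowest levels per kilobase, at most 3 called genes from each other list, and Elavl1; genes with counted copies were named after their values were seen, and the summary of 1 list is not reported here. Replicate numbers are shared between groups. Deviations from the group mean correlated between same-numbered HFCF libraries at 0.18, 0.29 and 0.14, and between same-numbered libraries of the other pairs of groups at -0.11 to 0.24. Differently numbered libraries were not correlated, so these values cannot show whether the numbers pair libraries, and the labels state no pairing. The fits reported are unpaired, and a fit with the replicate number as a block was run as an alternative. Other alternatives were other scaling factors, filters and pseudocounts, voom weights, other sets of libraries in the fit, leaving out each library and, chosen after seeing the data, adding the counts of copies.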

Additional observations from a re-analysis of the deposited data

How the results depend on the processing

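The count of ribosomal protein genes that passed between genotypes on chow was 1 and became 4 in a fit on all 12 libraries, 0 by the criteria of the study and 0 to 16 when 1 library was left out, and the median, -0.16, ran from -0.25 without chow WT replicate 2 to -0.11 without chow WT replicate 1 and was -0.08 under library totals alone. On HFCF the count was 0, with 6 under library totals alone (Rps21, Rpl9, Rps3, Rpsa, Rpl3 and Rps4x) and 0 to 1 with 1 library left out, Rps12 being the 1. The interaction gave 0 under every setting run. For the diet in WT the count of 73 became 18 by the criteria of the study and 68 to 74 with 1 library left out, and the median was -0.32 under library totals alone. For the diet in HuRHep-/- the count of 39 became 19 with upper-quartile factors, 2 under library totals alone (Rps27 and Rpl27a), 0 by the criteria of the study and 14 to 50 with 1 library left out. In that comparison the shares of all genes called lower were 13.5% with upper-quartile factors and 6.49% under library totals alone. They were 14.9% where 14 genes fell and 20.0% where 50 fell. Under library totals alone the median of the 76 genes there was 0.0017, above 0, while that of all genes was 0.23, and Rps28, Rps21 and Rps18 were no longer called. Rps12 with the diet in WT, at 0.30, turned to -0.49 with the counts of its copy added and to between -0.14 (without chow WT replicate 1) and 0.63 with 1 library left out. The share of counts in chow WT, chow HuRHep-/-, HFCF WT and HFCF HuRHep-/- became 2.03%, 1.88%, 1.60% and 1.90% when the 10 most counted genes were left out of the total, and 1.26%, 1.20%, 1.01% and 1.20% without the genes that share over 50% of their words with a listed gene. With the replicate block the counts were 1 on chow, 0 on HFCF, 0 for the interaction, 74 for the diet in WT and 46 for the diet in HuRHep-/-, each within 1.5 times the count without it. The cause of these changes was not tested. For the genes with the largest called changes (Rpl10a on chow and 5 genes for the diet in each genotype) and Rps12 for the diet in WT, 259 values under these settings kept their direction and their side of the threshold, 9 were no longer called and 2, both of Rps12, changed sign. With copies added, Rps12 also changed sign on HFCF (0.16) and in the interaction (0.43), and so did Rpl27 (-0.17) and Rpl10 (-0.14) for the diet in HuRHep-/-. Rpl35, Rpl21 and Rpl23a on HFCF and Rpl21 for the diet in HuRHep-/-, none of them called, changed sign as well. Counts were lowest for Rps12, with 10 to 28 in 3 libraries.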
